A study of Mus musculus with 6 samples.

Results

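The fatty acid binding proteins Fabp1 to Fabp7 were followed in livers of male Balb/c and Balb/cBy mice. The 7 genes were taken as a named family that was selected on the measured strain differences of Fabp5 and Fabp2, which lie in opposite directions, and all 7 were among the 22180 genes measured. They were read by 11 probe sets, of which the one with the highest mean over all 6 arrays stands for each gene. Each strain was represented by 3 arrays of liver RNA, labelled as biological replicates. All mice were kept in individual cages and ate a high-fat diet (fat supplied 58% of energy) for 12 weeks from the age of 8 weeks, up to sampling at 20 weeks. The strains are substrains of one inbred albino line, and Balb/cBy mice are known to carry a deletion in Acads, the short-chain acyl-CoA dehydrogenase gene. The labels do not name the supplier of either substrain, and mice on other diets were not analysed here, so all values describe fat-fed livers.

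Fatty acid binding proteins are small cytosolic carriers that hold a long-chain fatty acid or a related lipid inside a barrel of beta strands. They move lipids from the cell membrane to mitochondria, peroxisomes, the endoplasmic reticulum and the nucleus, where some of them hand ligands to the PPAR family of lipid-sensing receptors. Each member has a characteristic tissue: Fabp1 is the carrier of the hepatocyte, Fabp2 of the small intestine, Fabp3 of heart and muscle, Fabp4 of adipocytes, Fabp5 of the epidermis, Fabp6 of the ileum and Fabp7 of the brain. Fabp4 and Fabp5 are also made by macrophages and capillary endothelium. In livers of many species Fabp1 is among the most abundant cytosolic proteins.

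Values are log2 units of normalised array signal, on which a difference of 1 is a doubling. Array medians lay between 7.66 and 7.74, and the highest value on any array was 14.84. Because probe sets differ in how brightly they bind, levels are compared between arrays for one gene and not between genes. A detection call was not used here, so a low value does not show whether the transcript was present. As the family was chosen with the strain difference known, differences of its members are given as descriptions with a moderated standard error (SE) and without a test. Precision is limited by the 3 arrays a strain.

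The upstream sequences of Fabp1 and Fabp2 are shown because these are the carriers of liver and small intestine, and both had lower mean values in Balb/cBy. They are 250 bases before the RefSeq start (GRCm38.p6, mouse C57BL/6J), both on the + strand, at chr6:71199629-71199878 for Fabp1 and chr3:122894822-122895071 for Fabp2. Capitals mark matches on either strand to AGGTCA (the core bound by many nuclear receptors), to the direct repeat of it described next, and to the TATA box TATAAA.
Fabp1: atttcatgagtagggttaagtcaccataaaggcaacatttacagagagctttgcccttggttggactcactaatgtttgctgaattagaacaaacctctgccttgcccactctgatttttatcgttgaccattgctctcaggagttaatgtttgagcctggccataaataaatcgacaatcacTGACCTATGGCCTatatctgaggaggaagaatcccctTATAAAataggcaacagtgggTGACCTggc
Fabp2: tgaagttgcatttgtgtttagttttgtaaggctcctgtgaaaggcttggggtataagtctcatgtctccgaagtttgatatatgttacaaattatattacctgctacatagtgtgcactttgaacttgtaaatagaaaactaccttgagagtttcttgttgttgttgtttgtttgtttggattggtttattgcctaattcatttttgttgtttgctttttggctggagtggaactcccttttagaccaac

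The Fabp1 window holds AGGTCA on the - strand at 2 places, from 67 to 62 and from 9 to 4 bases before the start. The first of these is part of a direct repeat, from 67 to 55 bases before the start, in which 1 base separates the copies and 1 letter differs from AGGTCA. This is the kind of repeat that PPAR and RXR bind as a pair. Such a repeat with at most 1 differing letter occurs in 159 of 32851 RefSeq promoter windows of the same length (0.484%), and one with no differing letter in 11 (0.0335%). The search was written with the Fabp1 sequence in view, so its match is no test. AGGTCA alone occurs in 14.0% and TATAAA in 12.4% of them. GTTAAT, a core of hepatocyte nuclear factor sites, lies from 107 to 102 bases before the start of Fabp1 and in 6.43% of all windows. Of the other 4 members with an entry, Fabp7 had AGGTCA from 171 to 166 bases before its start and Fabp6 had TATAAA on the opposite strand, from 29 to 24 bases before its start. The windows of Fabp2 and Fabp3 held none of these letters. Fabp4 and Fabp5 had no entry. A match describes the letters and does not show that a factor binds there.

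Fabp5 had the widest strain difference of the family and was higher in Balb/cBy. Its 3 Balb/c arrays read 7.75, 8.27 and 8.75, and its 3 Balb/cBy arrays read 10.04, 9.59 and 9.11, in order of replicate number. All Balb/cBy values lay above all Balb/c values, with 0.36 between the nearest arrays. Means were 8.26 ± 0.50 and 9.58 ± 0.46 (SD, n = 3 each), which differ on the log2 scale by 1.32 (SE 0.29), or 2.50-fold. Among all 22180 genes it was the 9th highest difference towards Balb/cBy. Arrays of one strain lay further apart than that gap. Balb/c replicate 1 and Balb/cBy replicate 1 were the extremes, and the nearest arrays were replicate 3 of either strain. Leaving out Balb/c replicate 1 gave a difference of 1.07, and leaving out Balb/c replicate 3 gave 1.57.

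**Figure D1:**
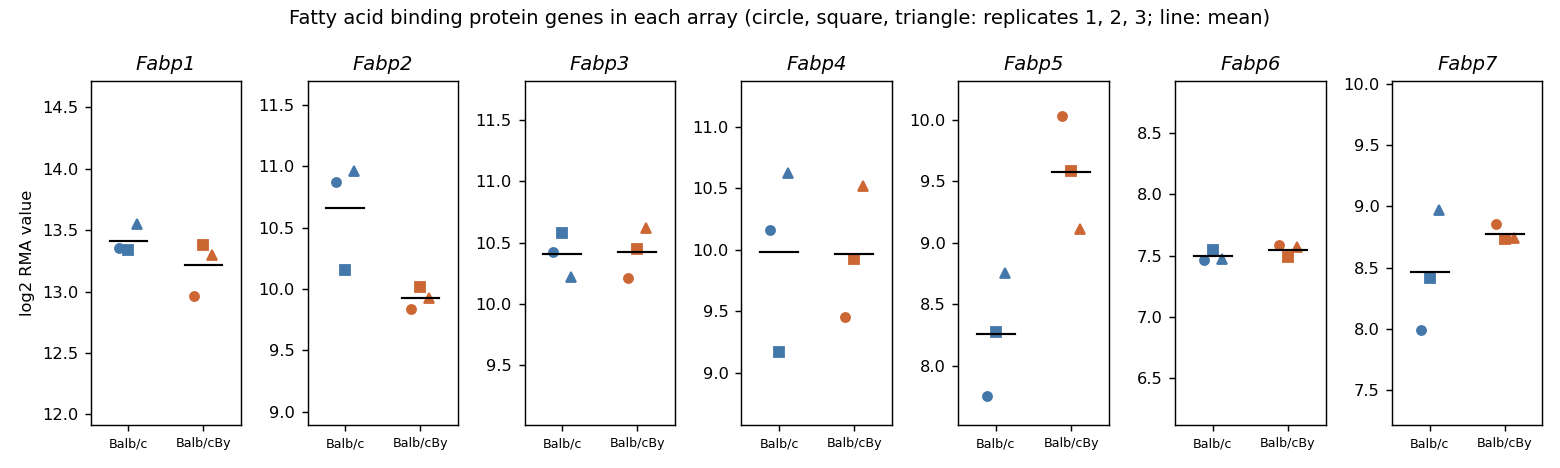
Each panel plots the log2 value of 1 member in the 3 Balb/c (blue) and 3 Balb/cBy (orange) arrays, with symbols for the replicate and a line at the strain mean; every panel spans the same number of log2 units. Fabp5 (8.26 against 9.58) and Fabp2 (10.66 against 9.93) separate the strains without overlap, whereas the points of the other 5 members overlap.

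Fabp5 was the member with most probe sets, 4 in all, and each of them was higher in every Balb/cBy array than in any Balb/c array. Probe set 17548717, which stands for the gene, and probe set 17548238 gave nearly the same values, with differences of 1.32 (SE 0.29) and 1.33 (SE 0.28). Probe set 17404073 read 6.86, 7.24 and 7.06 in Balb/c and 7.84, 8.12 and 7.57 in Balb/cBy, a difference of 0.79 (SE 0.17). Probe set 17396056 read 7.33, 7.33 and 7.56 against 8.08, 7.92 and 7.75, a difference of 0.51 (SE 0.12). The sign was therefore shared by all 4, and the fold ranged from 1.42 to 2.51. The mean of the 4 gave a difference of 0.99. Copies of Fabp5 without a protein product exist in the mouse genome, and the probes of these sets were not examined here, so which transcripts each set reads is not known. The 4 sets measure the same 6 RNA samples and are no further replicates.

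**Figure D2:**
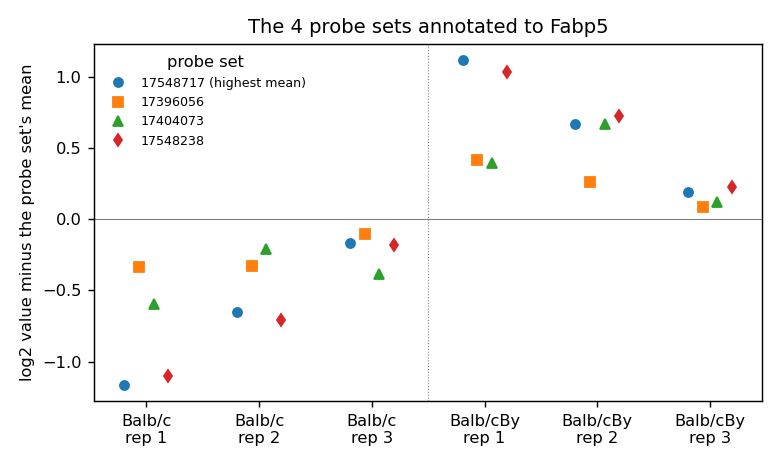
The points show each of the 4 probe sets annotated to Fabp5 in the 6 arrays, as the log2 value minus the mean of that probe set. All 4 lie below 0 in the Balb/c arrays and above 0 in the Balb/cBy arrays, with differences between the strains from 0.51 to 1.33.

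Fabp2, which carries fatty acids absorbed by enterocytes, was lower in Balb/cBy. It read 10.87, 10.15 and 10.96 in Balb/c, and 9.84, 10.02 and 9.93 in Balb/cBy. The Balb/cBy arrays lay close together and below all Balb/c arrays, but Balb/c replicate 2 stood only 0.13 above the highest of them. Means were 10.66 ± 0.44 and 9.93 ± 0.090 (SD, n = 3 each), which differ on the log2 scale by -0.73 (SE 0.20), which is a fold of 0.602. Ordered from the most negative difference, Fabp2 held rank 20 among the 22180 genes. Leaving out Balb/c replicate 2 gave a difference of -0.99, and leaving out Balb/c replicate 3 gave -0.58. It was read by 1 probe set. Fabp5 and Fabp2 were the 2 of 7 members whose strains did not overlap, where 7.83% of all genes did not overlap (4.32% higher and 3.51% lower in Balb/cBy), and since both were known from this contrast nothing is read from that count.

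Fabp1, the fatty acid carrier of hepatocytes, read 13.36, 13.34 and 13.55 in Balb/c and 12.97, 13.38 and 13.30 in Balb/cBy. Balb/cBy replicates 1 and 3 lay below all Balb/c arrays, and Balb/cBy replicate 2 lay among them. The log2 difference was -0.20 (SE 0.13), a fold of 0.870, from means of 13.42 ± 0.12 and 13.21 ± 0.22 (SD, n = 3 each). It was -0.08 without Balb/cBy replicate 1. Values of Fabp1 lie near the top of the measured scale, where array signals are known to be compressed.

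Fabp4, the adipocyte and macrophage carrier, varied widely within each strain and had nearly the same mean in both. It read 10.16, 9.17 and 10.62 in Balb/c and 9.45, 9.92 and 10.52 in Balb/cBy, so that both strains spanned more than 1 log2 unit and overlapped almost entirely. Means were 9.99 ± 0.74 and 9.96 ± 0.54 (SD, n = 3 each), and the log2 difference was -0.02 (SE 0.38). The sign depended on single arrays, at -0.43 when Balb/c replicate 2 was left out and 0.30 when Balb/c replicate 3 was, and it was 0.24 with weighted arrays. Its SE was more than 3 times the median SE of all genes (0.12), so a strain difference of moderate size could not have been resolved.

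Fabp7, known from glia of the brain and also from Kupffer cells of the liver, read 7.996, 8.42 and 8.97 in Balb/c and 8.86, 8.73 and 8.75 in Balb/cBy. The Balb/cBy arrays were tightly grouped and lay inside the range of Balb/c. The log2 difference was 0.32 (SE 0.22), from 8.46 ± 0.49 to 8.78 ± 0.067 (SD, n = 3 each). Leaving out Balb/c replicate 1 gave 0.08, and leaving out Balb/c replicate 3 gave 0.57.

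Fabp3, the heart and muscle carrier, read 10.42, 10.58 and 10.22 in Balb/c and 10.22, 10.44 and 10.62 in Balb/cBy. The log2 difference was 0.02 (SE 0.14), and it was -0.04 after a repeated quantile normalization. A second probe set of Fabp3 differed by -0.11 (SE 0.13), at values from 7.67 to 8.07. Fabp6, which binds bile acids in the ileum, varied least of all members, from 7.47 to 7.59 over the 6 arrays, and differed by 0.05 (SE 0.09). The values of both strains overlapped for these genes.

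The family was selected because Fabp5 and Fabp2 differ in opposite directions, so mixed signs among its members were fixed by that choice and nothing is read from them. In Balb/cBy 4 of the 7 had a higher and 3 a lower mean, with a median difference of 0.02 beside -0.00282 over all genes. Of all genes 49.1% had a higher and 50.9% a lower mean. These signs include those of Fabp3 and Fabp4, which turned under other processing. The SD over all 6 arrays was 0.84 for Fabp5, 0.58 for Fabp4, 0.49 for Fabp2 and 0.36 for Fabp7, against 0.14 for the median gene. For Fabp1, Fabp3 and Fabp6 it was 0.19, 0.17 and 0.051.

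**Figure D3:**
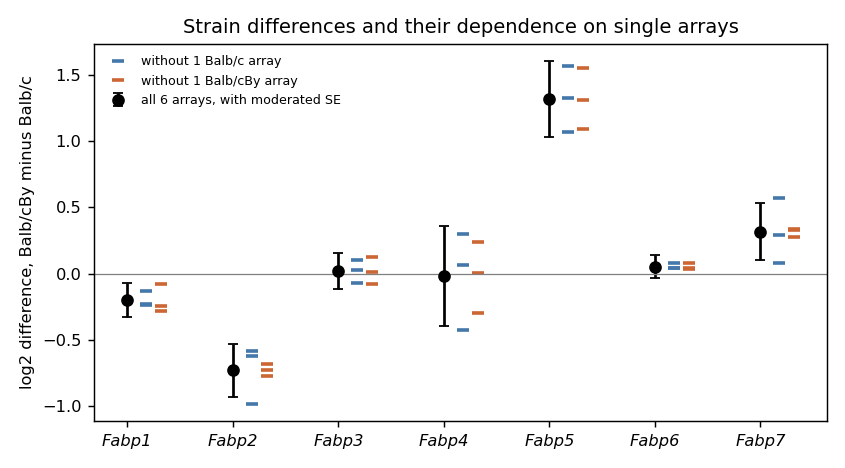
Black points give the log2 difference of each member (Balb/cBy minus Balb/c) with its moderated SE, and coloured dashes the difference after leaving out 1 array. Fabp5 stays between 1.07 and 1.57 and Fabp2 between -0.99 and -0.58, while the dashes of Fabp3 and Fabp4 fall on both sides of 0.

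Neighbouring genes were tested to see whether the differences extended along the chromosome, which the choice of members did not use. Fabp5 and Fabp2 both lie on mouse chromosome 3, far apart, and Fabp5 shares its stretch with Pmp2, Fabp9, Fabp4 and Fabp12. Of the 10 nearest other measured genes around Fabp5, 0 passed an adjusted p of 0.05 in limma, and 1 had an unadjusted p under 0.05. This was the gene model Gm9833, at -0.24 (SE 0.10, adjusted p = 0.999). Of all 22180 genes 0 passed, and 3.76% had an unadjusted p under 0.05. A count of 0 passing, here or around Fabp2, therefore cannot show whether differences extend along the chromosome. The carriers of the cluster differed little: Pmp2, the myelin fatty acid binding protein, by -0.08 (SE 0.14), Fabp9, known from sperm, by -0.03 (SE 0.09), and Fabp12 by -0.02 (SE 0.12). Strain means of these carriers were low, from 6.39 for Pmp2 in Balb/cBy to 7.42 for Fabp12 in Balb/c. All lay below the lowest array median of 7.66, where a difference could be missed. The other neighbours were Tpd52 (0.06), 4930539M17Rik (0.09), Zbtb10 (0.06), Zfp704 (-0.07), Pag1 (-0.09) and the phosphatase gene Impa1 (-0.07). Differences of all 10 lay between -0.24 and 0.09.

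Around Fabp2, 0 of 10 neighbours passed and 0 had an unadjusted p under 0.05 in limma. The widest differences were -0.25 (SE 0.12) for the adaptor gene Bcar3, -0.22 (SE 0.16) for Fnbp1l and 0.17 (SE 0.14) for Sec24d, a coat protein of vesicles leaving the endoplasmic reticulum. Pde5a, 4930447N08Rik and 4933405D12Rik on one side differed by 0.06, 0.09 and -0.06. On the other side 1810037I17Rik, Usp53, Myoz2 and Synpo2 differed by 0.03, 0.02, -0.13 and -0.000383. No smaller adjusted p than 0.999 was found for any of the 20 neighbours.

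Genes that work with the carriers were taken from 10 lists, with 134 of 145 genes measured beside the members. None passed in limma (0 of 134 at an adjusted p of 0.05, as 0% of all genes), and the smallest adjusted p was 0.279. An unadjusted p under 0.05 was reached by 10 (7.46%), 5 higher and 5 lower, against 3.76% of all genes. That count of 10 was 6 without moderation of the variances, 16 with repeated quantile normalization and 17 with array weights. Without Balb/cBy replicate 1 it was 14, beside 1828 of all genes, and without Balb/cBy replicate 2 it was 9, beside 431 of all genes. Strains did not overlap for 14 of the 134 (10.4%), against 7.83% of all genes. The lists were chosen with earlier results of these data known, so neither share is read as an excess. Nor is anything read from the signs within single lists, beside 49.1% of all genes higher and 50.9% lower. The median difference of the 134 was -0.03.

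Of the other intracellular lipid-binding proteins, 7 of 8 were measured. None was past an unadjusted p of 0.05. The retinoic acid carriers Crabp2 and Crabp1 had the smallest p, at -0.19 (SE 0.11, adjusted p = 0.999) and -0.18 (SE 0.13). All 7 had a lower mean in Balb/cBy, beside 50.9% of all genes, with a median of -0.08, and the strains overlapped for each. List means were low, from 7.36 to 7.42 in Balb/c and from 7.19 to 7.41 in Balb/cBy, under the lowest array median of 7.66. Nothing is read from the shared sign at these levels. Fatty acid uptake and activation genes (14 of 16 measured) had a median of -0.03, 5 higher and 9 lower, with 0 past an unadjusted p of 0.05. Slc27a3 and Acsl6, which attach coenzyme A to fatty acids, differed by -0.15 (SE 0.09) and -0.13 (SE 0.10). The fatty acid translocase Cd36 read 9.12, 8.64 and 9.29 in Balb/c and 8.76, 9.16 and 9.55 in Balb/cBy, a difference of 0.14 (SE 0.22). Of the other cytosolic lipid carriers, 13 of 13 were measured and 0 had an unadjusted p under 0.05. Their median was 0.04 (8 higher, 5 lower), with the peroxisomal Acbd5 at -0.60 (SE 0.27) and the acyl-CoA binding protein Dbi at 0.21 (SE 0.11).

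Receptors and transcription factors tied to these genes (20 of 22 measured) were balanced, 10 higher and 10 lower, with a median of 0.0016. Cebpa, a factor of hepatocytes and adipocytes, read 11.25, 11.30 and 11.48 in Balb/c and 10.83, 11.01 and 11.10 in Balb/cBy, a difference of -0.36 (SE 0.11, adjusted p = 0.999). Ppard, the receptor to which FABP5 is known to carry ligands, read 9.39, 9.36 and 9.32 against 9.66, 9.62 and 9.50. Its difference was 0.24 (SE 0.09, adjusted p = 0.999). Strains did not overlap for 2 of the 20, Cebpa and Ppard, beside 7.83% of all genes. Neither passed over all genes. PPAR-alpha targets of fatty acid oxidation (17 of 20 measured) had a median of -0.18, 4 higher and 13 lower, beside 50.9% of all genes lower. Their list means overlapped, from 10.17 to 10.30 in Balb/c and from 9.96 to 10.22 in Balb/cBy, where replicate 1 was lowest. Nothing is read from these signs. The thiolase Acaa1b read 11.00, 10.98 and 10.80 in Balb/c and 9.54, 10.32 and 10.30 in Balb/cBy, a difference of -0.87 (SE 0.20, adjusted p = 0.999), and the thioesterase Acot1 differed by -0.42 (SE 0.14). Neither passed. Targets of PPAR-gamma in fatty liver (12 of 12 measured) had a median of 0.06, 9 higher and 3 lower, with the lipolysis inhibitor G0s2 at -0.59 (SE 0.27) and the droplet protein Cidec at 0.52 (SE 0.33).

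In triglyceride and lipoprotein assembly (12 of 12 measured, 6 higher and 6 lower, median 0.02), Apoa4, an apolipoprotein of intestine and fat-laden liver, had the smallest p of all these genes. It read 12.69, 12.50 and 12.55 in Balb/c and 13.30, 13.11 and 13.44 in Balb/cBy, a difference of 0.70 (SE 0.11, adjusted p = 0.279), and did not pass. The acyltransferase Gpam differed by -0.21 (SE 0.14). Bile acid carriage beside Fabp6 (12 of 13 measured) had a median of -0.17, 3 higher and 9 lower. The ileal type bile acid transporter Slc10a2 read 8.57, 8.69 and 8.83 in Balb/c and 9.14, 10.08 and 9.56 in Balb/cBy. Its difference was 0.90 (SE 0.21, adjusted p = 0.999), and that of the organic anion transporter Slco1a4 was -0.78 (SE 0.29), neither past the threshold. In retinoid and endocannabinoid handling (15 of 15 measured, 8 higher and 7 lower, median 0.01), the retinol-binding protein receptor Stra6l differed by 0.32 (SE 0.11) and Rdh11 by 0.34 (SE 0.18).

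Markers of the cells in which each carrier is known were read beside it. In bulk liver RNA, fewer cells of a type and less RNA per cell cannot be told apart. Hepatocyte markers (8 of 8 measured) had list means of 12.97 to 13.05 in Balb/c and 12.98 to 13.16 in Balb/cBy, with albumin, Alb, at 14.20 ± 0.023 and 14.17 ± 0.012 and hemopexin, Hpx, at 13.94 ± 0.26 and 14.02 ± 0.020 (SD, n = 3 each). Beside Fabp5, 8 of 8 measured markers of lipid-associated macrophages had higher means in Balb/cBy, with a median of 0.26, and 49.1% of all genes did so. List means ran from 8.33 to 8.45 in Balb/c and from 8.59 to 8.72 in Balb/cBy, without overlap. Single markers separated the strains in 3 of the 8, Cd63, Gpnmb (0.36) and Cd9 (0.36), beside 7.83% of all genes. The other markers overlapped, among them Trem2 (0.11), Lgals3 (0.05) and Itgax (0.03). Spp1 was also listed and was not measured. Cd63 differed by 0.59 (SE 0.12, adjusted p = 0.668) and none passed. The list was chosen with earlier results of these data known, so neither its signs nor its separation is read as an excess. The brightest, Ctss and Cd9, stood at 9.26 ± 0.42 and 8.75 ± 0.029 in Balb/c and 9.47 ± 0.32 and 9.11 ± 0.18 in Balb/cBy (SD, n = 3 each). Cd9 and Cd63 are also made by many other cells. Within each strain the array with the highest Fabp5, Balb/c replicate 3 and Balb/cBy replicate 1, had the lowest mean of this list. Lists of other cells leaned both ways. Means were higher in Balb/cBy for 9 of the 10 measured stellate cell markers (median 0.18). They were also higher for 8 of the 10 measured striated muscle markers (median 0.03). Means were lower for 10 of 14 enterocyte, 5 of 7 glia and nerve and 4 of 5 cholangiocyte markers. Endothelial markers were balanced, 6 higher and 6 lower.

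Markers of macrophages and Kupffer cells (14 of 14 measured, 9 higher, median 0.10) ran from 9.46 to 10.16 in Balb/c and from 9.73 to 10.13 in Balb/cBy, with overlap. The lowest was Balb/c replicate 3, in which Fabp5, Fabp7 and Fabp4 had their highest Balb/c values. Within Balb/cBy the lowest was replicate 1, in which Fabp5 and Fabp7 were highest and Fabp4 lowest, and the highest was replicate 3, in which Fabp4 was highest. C1qb stood at 10.84 ± 0.54 and 11.02 ± 0.086, and Vsig4 at 10.87 ± 0.32 and 11.28 ± 0.11. Keratinocyte markers (8 of 9 measured, median 0.0036) ran from 7.86 to 7.97 and from 7.81 to 8.03, with Sfn at 9.21 ± 0.11 and 9.29 ± 0.16 and Krt10 at 8.53 ± 0.098 and 8.43 ± 0.14. The part of any of these cells in the difference of Fabp5 was not tested.

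Beside Fabp2, enterocyte markers (14 of 14 measured) had 4 higher and 10 lower means, a median of -0.06, and list means from 8.70 to 8.82 in Balb/c and from 8.68 to 8.86 in Balb/cBy. The brightest, Apob (13.36 ± 0.25 and 13.32 ± 0.054) and Apoa4 (12.58 ± 0.10 and 13.28 ± 0.16), are made by liver too, and Apoa4 differed in the opposite direction to Fabp2. The intestinal factor Cdx2 stood at 7.93 ± 0.070 and 7.83 ± 0.077 (SD, n = 3 each). Beside Fabp4, adipocyte markers (8 of 10 measured, median 0.02) ran from 8.31 to 8.58 and from 8.21 to 8.68, with Thrsp, also a gene of hepatocyte lipid synthesis, at 11.30 ± 0.38 and 11.40 ± 0.85 and Retn at 8.79 ± 0.18 and 9.14 ± 0.60. Balb/c replicate 3, with the highest Fabp4, had the lowest adipocyte and endothelial means of its strain. Within Balb/cBy both lists ordered the arrays as Fabp4 did, with replicate 3 highest and replicate 1 lowest. Endothelial markers (12 of 12 measured, median 0.02) ran from 9.13 to 9.24 and from 9.07 to 9.32, with Clec4g at 11.80 ± 0.15 and 11.86 ± 0.10 and Cdh5 at 10.00 ± 0.096 and 10.11 ± 0.14. The part of these cells in the values of Fabp2 and Fabp4 was not tested.

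**Figure D4:**
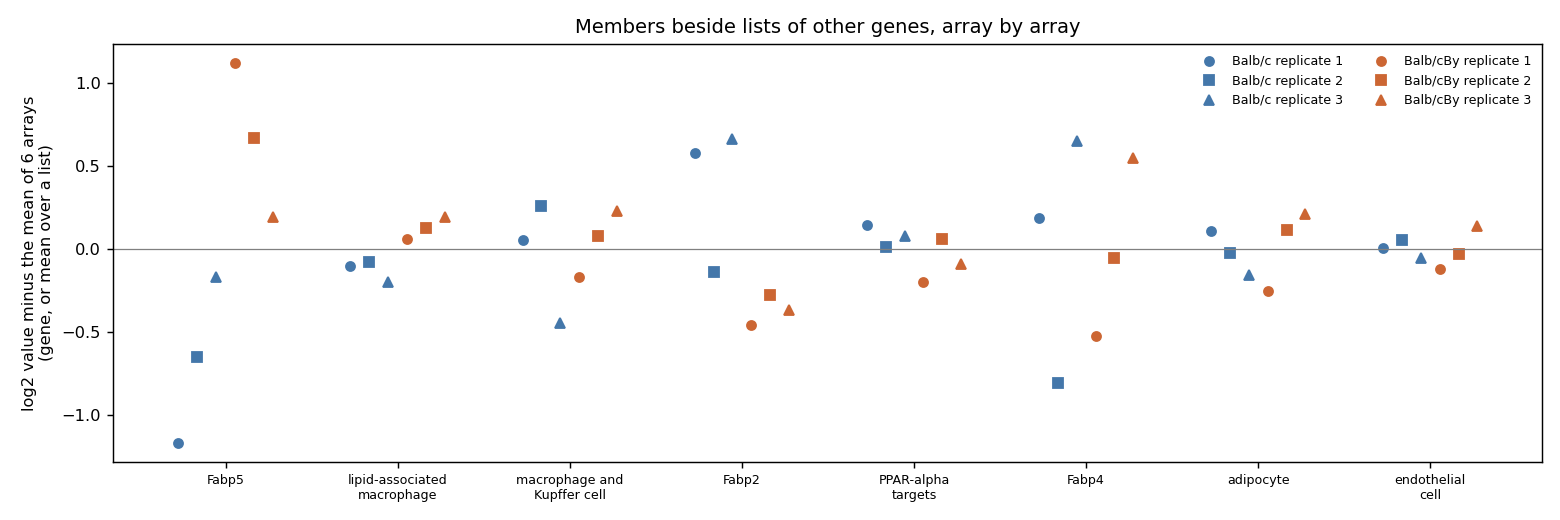
Points give, for each array, a member's log2 value or the mean of a gene list, minus its mean over the 6 arrays. The lipid-associated macrophage list separates the strains (-0.20 to -0.08 in Balb/c, 0.06 to 0.19 in Balb/cBy), as Fabp5 does, over a narrower range. Within each strain, however, the array with the highest Fabp5 has the lowest mean of that list. The adipocyte and endothelial lists overlap as Fabp4 does.

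For the remaining carriers, striated muscle markers (10 of 10 measured, median 0.03) ran from 8.12 to 8.30 in Balb/c and from 8.17 to 8.31 in Balb/cBy, with Des at 9.03 ± 0.084 and 9.05 ± 0.17 and Tnnt2 at 8.54 ± 0.10 and 8.63 ± 0.14. Markers of glia and peripheral nerve (7 of 9 measured, median -0.05) ran from 7.52 to 7.56 and from 7.45 to 7.57, with Mbp at 8.31 ± 0.14 and 8.25 ± 0.11 and Sox10 at 8.28 ± 0.094 and 8.15 ± 0.10. Cholangiocyte markers (5 of 8 measured, median -0.07) ran from 7.64 to 7.69 and from 7.51 to 7.71, with Sox9 at 8.50 ± 0.11 and 8.66 ± 0.29 and Krt19 at 7.995 ± 0.054 and 7.92 ± 0.13. Stellate cell markers (10 of 11 measured, median 0.18) ran from 9.14 to 9.43 and from 9.35 to 9.61, with Dcn at 11.82 ± 0.24 and 12.30 ± 0.17 and Reln at 10.18 ± 0.24 and 10.54 ± 0.41. None of these markers passed in limma (adjusted p from 0.744).

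For the 4 members with an SD of at least 0.3 over the 6 arrays, the genes most like them were found by the root mean square distance between centred log2 values. The measure takes in strain and replicate alike, and the genes were chosen for their likeness, so it is a description over 6 arrays. Nearest to Fabp5 were the sulfotransferase Sult5a1 (distance 0.28), the endoplasmic reticulum protein Creld2 (0.29) and the interleukin-1 receptor Il1r1 (0.35), against 0.78 for the median gene. Nearest to Fabp2 were the peptidase Mme (0.15), Ddah1, which breaks down methylated arginine (0.16), and the cytochrome P450 Cyp2c23 (0.19), against 0.47. Like Fabp2, these had lower means in Balb/cBy, by -0.82, -0.68 and -0.52 on the log2 scale (adjusted p = 0.999 each). Fabp4 was nearest to the lectin Clec2d (0.17), the sodium pump subunit Atp1b1 (0.24) and Eif4b (0.25), and Fabp7 to the splicing gene Srrm2 (0.11), Msl2 (0.11) and Mir103-2 (0.12). The median gene lay at 0.55 from Fabp4 and at 0.35 from Fabp7.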

How the data were processed

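Per the submitters' processing notes, the authors deposited RMA output, which corrects background, quantile-normalizes arrays and summarises probes. Its unit, log2 per probe set, was read from the deposited values. Version, array annotation and filters were not stated in what was used here. There were 41345 probe sets on 6 arrays and 0 missing values. Pearson correlations between arrays were 0.972 to 0.988. Gene names came from GEO's platform annotation, which can be old, and 23521 probe sets had 1 symbol. Probe sets with several symbols or no listed gene were not used, and genes with several probe sets took the brightest.

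The strain difference, Balb/cBy minus Balb/c, was estimated over 22180 genes in limma 3.58.1 (lmFit, eBayes; R 4.3.3), with no covariate, no filter, and Benjamini-Hochberg adjustment at 0.05. The scripts were tested on simulated data, where recovery was required only for differences wider than that of any member. An exact permutation test of 3 against 3 cannot give a p below 0.1. The labels call arrays biological replicates but tie none to an animal; p-values measure the spread between these samples. RNA input was 500 ng.

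Members, the 10 pathway and 11 marker lists, and the tests were chosen with earlier results of these data known. Named were all members and their probe sets, of each pathway list the 2 genes with the smallest p (Cd36 was added after its values were seen), all neighbours, of each marker list the 2 genes with the highest mean (Cd63 and Cdx2 were added after their values were seen), and the 3 genes most like each variable member, passing over gene models without a proper symbol. 1 list symbol, Bmal1, was matched by its older name Arntl. Neighbours came from RefSeq GRCm38.p6 gene order, and upstream sequences from RefSeq with the same build. Other settings tried were a block for replicate number, arrays recentred on a common median, repeated quantile normalization, leaving out the lowest 25% of genes, the mean of all probe sets, a trended and robust variance, array weights, no moderation, and leaving out each array.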

Additional observations from a re-analysis of the deposited data

How the results depend on the processing

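The count of genes past the threshold was 0 and became 12 with array weights, none of them a member, a listed pathway gene or a neighbour; with single arrays left out it ranged from 0 to 3. Leaving out Balb/c replicate 3 gave 2, and leaving out Balb/cBy replicate 1 gave 3. At an unadjusted p under 0.05 there were 833 genes, 511 with a replicate block, 724 without moderation and 1761 with array weights, and from 431 (without Balb/cBy replicate 2) to 1828 (without Balb/cBy replicate 1) with single arrays left out. Among the 134 pathway genes that count was 10, from 6 without moderation to 17 with array weights. Pathway genes and neighbours past the threshold stayed at 0 in all 14 alternatives. Same-numbered arrays had deviations correlated at -0.32, -0.20 and -0.23, which gave no sign of a pairing by number. With 3 arrays a strain these values cannot exclude one. The replicate block left 0 calls. Fabp5 kept its sign in all 14 alternatives (0.99 with the mean of its probe sets to 1.34 recentred, and 1.07 to 1.57 with single arrays left out), as did Fabp2 (-0.80 to -0.72, and -0.99 to -0.58). Fabp1, Fabp6 and Fabp7 kept theirs. Fabp3 turned in 4 alternatives and Fabp4 in 5, each within the spread between arrays. As the strains did not overlap for Fabp5 and Fabp2, leaving out a single array could not turn their signs. The replicate block, the trended and robust variance, no moderation and leaving out low genes cannot change the estimate of any member. The kept signs of Fabp5 and Fabp2 are therefore no support for their differences. Array weights were smallest in Balb/cBy replicate 1, at 0.467, followed by Balb/c replicate 3, at 0.631. With 3 arrays a strain, differences such as those of Fabp1, Fabp3, Fabp4, Fabp6 and Fabp7 could not be told from 0. Those of Fabp5 and Fabp2 guided the choice of the family and were not tested.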

Other observations

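Genes of the circadian clock, which turn many liver transcripts on and off over the day, were spread widely within each strain. Of the 16 measured (18 listed, median difference -0.06), 0 passed in limma and 1 had an unadjusted p under 0.05, Bhlhe40 at -0.31 (SE 0.12, adjusted p = 0.999); Hlf differed by -0.20 (SE 0.15). The output gene Dbp read 9.24, 8.88 and 10.45 in Balb/c and 8.62, 10.18 and 9.94 in Balb/cBy. The activator Arntl, which peaks at the opposite time of day, read 8.58, 8.86 and 7.92 in Balb/c and 9.04, 7.56 and 7.91 in Balb/cBy. Balb/c replicate 3 and Balb/cBy replicates 2 and 3 were thus high for Dbp and low for Arntl, and the other 3 arrays the reverse. These sets of arrays mix the strains. Fabp4 read 10.62, 9.92 and 10.52 in the first set, and 10.16 in Balb/c replicate 1, 9.17 in Balb/c replicate 2 and 9.45 in Balb/cBy replicate 1, so the sets overlapped. Fabp5 was highest in Balb/cBy replicate 1 (10.04), where Dbp was lowest, and within Balb/c it was highest in replicate 3 (8.75), where Dbp was highest. The hour at which livers were taken is not given in the sources used here, and its part in these values was not tested.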
